A study of Homo sapiens with 12 samples.

Results

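The MHC class I presentation genes examined here were 9 rows of a table of 60671 genes, chosen by gene symbol and not by level. They were the heavy chain genes HLA-B, HLA-C, HLA-E and HLA-F, the light chain gene B2M, the peptide transporter genes TAP1 and TAP2, the tapasin gene TAPBP, and NLRC5, which encodes a transactivator of the class I genes. Other heavy chain genes were not analysed here. RNA was measured in 12 libraries labelled Jurkat, an established T cell leukemia line, with 3 libraries in each of 4 groups. Control cells (NC), which the labels call WT and the study's methods describe as carrying a lentiviral GFP vector driven by the SFFV promoter, received DMSO (NC+DMSO) or vincristine, a microtubule poison (NC+VCR). Cells overexpressing FLAG-tagged PTPN21, a tyrosine phosphatase, from a lentivirus with the same promoter received DMSO (PTPN21+DMSO) or vincristine (PTPN21+VCR). The incubation lasted 48 h, and both constructs are lentiviral, so no group was free of vector. The study asked which genes take part in the protection from vincristine-induced apoptosis by PTPN21. Nothing in the labels says that the 3 libraries of a group came from separate cultures, so p-values measure the spread between these samples, which may be technical.

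MHC class I molecules carry peptides made inside a cell to its surface, where CD8+ T cells read them. A heavy chain pairs with beta-2-microglobulin, the B2M product, in the endoplasmic reticulum, while the TAP1-TAP2 dimer pumps peptides cut by the proteasome across the membrane and tapasin holds the empty molecule next to the transporter. NLRC5 and interferon-induced factors raise transcription of these genes, and T cells as a rule carry class I molecules on their surface.

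Values were FPKM, fragment counts scaled to transcript length and to the size of the library, a scale per length. The series design text speaks of tag profiling, for which values per length would not compare genes in the same way, so an order of levels between genes holds only on the FPKM scale as deposited. PTPN21 lay between 0.0212 and 0.569 FPKM in the 6 NC libraries and between 4.34 and 10.5 FPKM in the 6 PTPN21 libraries. On the log2(FPKM + 1) scale it was higher by 3.20 in DMSO and by 2.29 in VCR (limma, Benjamini-Hochberg adjusted p = 4.75e-05 and 0.000509). PTPN21 reached the minimum mean of 1 FPKM set for the fit only through the PTPN21 libraries, so these p-values are a description and no further support for the label. The depth estimated from the steps of low FPKM values was 14360000 to 17780000 fragments in the NC libraries and 20360000 to 23780000 in the PTPN21 libraries, so depth and construct cannot be told apart. None of 108 ribosomal protein, proteasome and RNA polymerase II subunit genes was at 0 in any library.

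The cell label was checked against 10 T cell markers, and the data went against it. Of these, 8 stayed under 1 FPKM in every library and 4 (CD247, CD5, CD28 and LCK) were at 0 in all 12, although LCK and CD247 encode the proximal kinase and the zeta chain of the T cell receptor. CD3D alone was high, at 61.8 to 140 FPKM, and the other one to reach 1 FPKM in any library was CD3G, at 1.03 FPKM in NC+DMSO replicate 2. The summed T cell list was 62.7 to 95.4 FPKM in NC+DMSO and 107 to 131 in NC+VCR, and with PTPN21 it was 117 to 141 in DMSO and 107 to 111 in VCR. Genes of other lineages were abundant. The erythroid factor gene GATA1 was at 57.4 to 76.9 FPKM in NC+DMSO and 85.0 to 106 in PTPN21+DMSO, and after VCR at 13.5 to 25.3 with NC and 19.8 to 23.5 with PTPN21. The fetal globin gene HBG2 was at 780 to 1308 FPKM in NC+DMSO and 1966 to 2985 in PTPN21+DMSO, and after VCR at 560 to 637 with NC and 724 to 853 with PTPN21. Both were named after their values were seen, and for both the VCR libraries lay below the DMSO libraries of the same construct and PTPN21+DMSO lay above NC+DMSO. Of the 5 genes of the epithelial or kidney line list, 4 had a mean of at least 1 FPKM (KRT8, KRT18, KRT19 and EPCAM), and that list summed to 605 to 801 FPKM in NC+DMSO and 758 to 853 in PTPN21+DMSO, and after VCR to 1695 to 1797 with NC and 1678 to 2218 with PTPN21. The B cell, NK cell and fibroblast lists summed to at most 4.70 FPKM in any library, and the myeloid list, led by LYZ, to between 10.4 and 20.4 FPKM. The cells are called the libraries labelled Jurkat below. The part of these markers in the class I values was not tested.

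**Figure D1:**
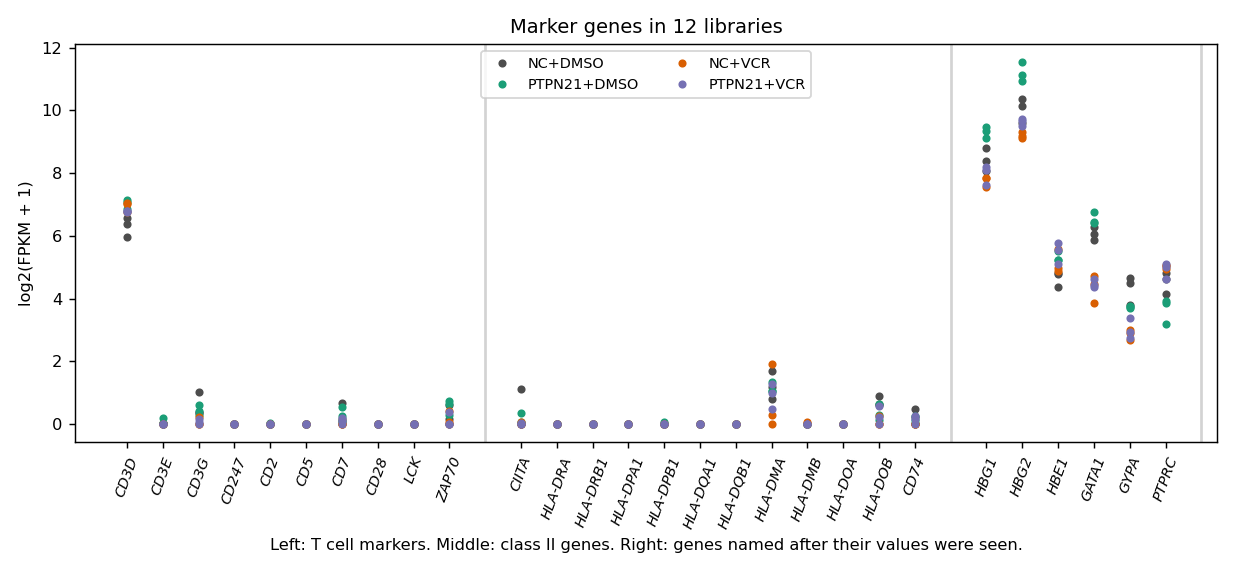
Level of 10 T cell markers, 12 class II genes and 6 genes named after their values were seen, as log2(FPKM + 1) on the vertical axis, with 1 point for each of the 12 libraries, coloured by group. Apart from CD3D, the T cell markers lie near 0, as do most class II genes, while HBG2 lies between 560 and 2985 FPKM.

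Upstream sequence is shown for 2 heavy chain genes that were near 0 and for the 2 members whose groups separated in DMSO, to set their regulatory letters side by side. The sequences were taken from RefSeq (build GRCh38.p14) from up to 250 bases before the RefSeq start, and bases inside the gene's span in GENCODE release 29 were left out. They are read 5′ to 3′ on the gene's strand, at chr6:31357189-31357429 (minus strand) for HLA-B, chr6:31272131-31272342 (minus) for HLA-C, chr15:44711267-44711486 (plus) for B2M and chr6:32838781-32838989 (minus) for TAP2. Capitals mark a match on either strand to the letters GAAA repeated with 2 bases between them (the interferon response element, ISRE) or CCAAT. They also mark, on either strand, TGACGC (the X2 box) and GGG, 2 bases, TT, 1 base and CC (a kappaB-type site).
HLA-B: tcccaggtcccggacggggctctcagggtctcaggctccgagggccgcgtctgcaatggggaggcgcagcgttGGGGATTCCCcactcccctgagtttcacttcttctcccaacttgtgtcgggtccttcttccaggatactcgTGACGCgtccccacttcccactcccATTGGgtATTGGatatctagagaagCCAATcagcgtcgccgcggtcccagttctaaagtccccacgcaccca
HLA-C: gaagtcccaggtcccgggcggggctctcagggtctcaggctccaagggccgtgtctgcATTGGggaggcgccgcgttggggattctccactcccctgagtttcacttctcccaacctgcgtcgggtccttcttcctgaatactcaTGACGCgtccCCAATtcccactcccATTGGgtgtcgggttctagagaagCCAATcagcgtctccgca
B2M: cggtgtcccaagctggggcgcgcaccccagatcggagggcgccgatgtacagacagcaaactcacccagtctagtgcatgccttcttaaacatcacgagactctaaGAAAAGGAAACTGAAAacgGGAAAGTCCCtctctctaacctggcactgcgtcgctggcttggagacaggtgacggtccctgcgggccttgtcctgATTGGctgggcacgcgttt
TAP2: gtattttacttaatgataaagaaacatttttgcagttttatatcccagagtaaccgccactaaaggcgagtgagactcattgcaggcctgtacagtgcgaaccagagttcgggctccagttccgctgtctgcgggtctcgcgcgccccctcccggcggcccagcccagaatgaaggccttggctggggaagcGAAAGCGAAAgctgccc
Of the 9 members, 7 had a promoter in the table, HLA-E and NLRC5 being those that did not. In the full windows of 250 bases, the ISRE letters were found in 5 of 7 members against 3.02% of 35116 promoters of the same length, the CCAAT letters in 5 of 7 against 32.0%, the X2 letters in 3 of 7 against 7.67% and the kappaB letters in 4 of 7 against 5.07%. HLA-B and HLA-C shared an X2 match at positions -106 and -105 from the start and a CCAAT match at -56 in both, and neither held the ISRE letters. B2M held 2 overlapping ISRE matches, the first at -144, a kappaB match at -125 and a CCAAT match at -49. TAP2 held an ISRE match at -58 and no CCAAT match, and its X2 match at -35 fell in the bases left out above. A match describes letters only, and these libraries hold no measurement of factor binding.

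The classical heavy chain genes HLA-B and HLA-C, which present peptides to CD8+ T cells, were at or near 0. HLA-B (ENSG00000234745, GENCODE release 29, GRCh38, chr6:31269491-31357188, minus strand) was listed at 0 FPKM in 11 libraries and at 0.0286 FPKM in PTPN21+DMSO replicate 3. HLA-C (ENSG00000204525, chr6:31268749-31272130, minus strand) was listed at 0 in all 12. HLA-F (ENSG00000204642, chr6:29722775-29738528, plus strand), a nonclassical heavy chain, was listed at 0 in 11 libraries and at 0.0330 FPKM in NC+DMSO replicate 1. At the estimated depth and the annotated exon length, 3 fragments correspond to at most 0.0685 FPKM for HLA-B, 0.0833 for HLA-C and 0.0481 for HLA-F. A listed 0 therefore allows levels up to about there (counting error only), and higher where the depth was overestimated, since the depths are approximate. No difference between groups was detectable. The heavy chain genes are near-identical in sequence, the annotated spans of HLA-B and HLA-C overlap, and how reads that fit several of them were assigned is not given in the sources used here. The zeros are therefore uncertain for each gene by itself.

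HLA-E (ENSG00000204592, chr6:30489467-30494205, plus strand), whose product presents leader peptides of other class I molecules to NK cell receptors, was the one heavy chain gene of the 4 with a measurable level. It was at 27.1, 29.6 and 33.3 FPKM in NC+DMSO, at 26.3, 29.2 and 29.3 in PTPN21+DMSO, at 36.3, 27.0 and 38.4 in NC+VCR and at 27.9, 26.4 and 25.9 in PTPN21+VCR. Every pair of groups overlapped, and all 12 values lay between 25.9 and 38.4 FPKM. Its mean was 30.0 ± 3.10 FPKM in NC+DMSO and 33.9 ± 6.03 in NC+VCR, beside 28.3 ± 1.67 in PTPN21+DMSO and 26.7 ± 1.06 in PTPN21+VCR (SD, n = 3 each).

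B2M (ENSG00000166710, chr15:44711487-44718877, plus strand), the shared light chain and the one member besides NLRC5 (chromosome 16) outside chromosome 6, had the highest level of the 9. It was at 88.7, 72.6 and 66.0 FPKM in NC+DMSO, at 200.5, 117 and 95.9 in PTPN21+DMSO, at 63.5, 150.1 and 159 in NC+VCR and at 110.4, 188 and 184 in PTPN21+VCR. The 3 PTPN21+DMSO libraries all lay above the 3 NC+DMSO libraries, while in NC+VCR replicate 1 lay below every NC+DMSO library and the other two above. The spread within groups was wide, with means of 75.8 ± 11.6, 138 ± 55.3, 124 ± 52.6 and 161 ± 43.6 FPKM in the same order (SD, n = 3 each).

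The transporter gene TAP2 (ENSG00000204267, chr6:32821833-32838780, minus strand) showed the clearest separation of groups. It was at 15.0, 9.90 and 17.6 FPKM in NC+DMSO, at 6.34, 7.97 and 8.93 in PTPN21+DMSO, at 2.51, 2.27 and 2.41 in NC+VCR and at 4.54, 2.12 and 6.71 in PTPN21+VCR. All NC+VCR libraries lay below all DMSO libraries of either construct, all PTPN21+DMSO libraries lay below all NC+DMSO libraries, and PTPN21+VCR spanned the range from below NC+VCR into that of PTPN21+DMSO. Its means were 14.2 ± 3.92 FPKM in NC+DMSO and 2.40 ± 0.120 in NC+VCR, beside 7.75 ± 1.31 in PTPN21+DMSO and 4.46 ± 2.29 in PTPN21+VCR (SD, n = 3 each). The annotated span of TAP2 lies within that of AL669918.1 on the same strand, which had a mean of 0.278 FPKM over the 12 libraries. How reads that fit both were assigned is not given in the sources used here.

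TAP1 (ENSG00000168394, chr6:32845209-32853978, minus strand), its partner in the transporter, was lower than TAP2 in every library. It was at 1.11, 1.01 and 0.589 FPKM in NC+DMSO, at 0.510, 0.853 and 0.379 in PTPN21+DMSO, at 0.0379, 0.0407 and 0.235 in NC+VCR and at 0.298, 0.374 and 0.0998 in PTPN21+VCR. With either construct, every VCR library lay below every DMSO library. With a mean of 0.462 FPKM over the 12 libraries TAP1 stayed under the minimum of 1 FPKM set for the fit. It overlaps the immunoproteasome gene PSMB9 on the opposite strand, and since strand is not stated for the counting, reads of the 2 genes cannot be told apart where they overlap.

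TAPBP (ENSG00000231925, chr6:33299694-33314387, minus strand), which encodes tapasin, was at 2.37, 2.75 and 4.02 FPKM in NC+DMSO, at 1.83, 1.45 and 2.52 in PTPN21+DMSO, at 3.95, 0.969 and 1.93 in NC+VCR and at 1.32, 2.59 and 1.47 in PTPN21+VCR. All groups overlapped, and the NC+VCR group held both the lowest value of the 12 and one close to the highest. NLRC5 (ENSG00000140853, chr16:56989485-57083531, plus strand) was listed at 0 in 7 of 12 libraries, among them all 3 NC+DMSO libraries. It was at 0.145 FPKM in PTPN21+DMSO replicate 1, at 0.260 and 3.65 in NC+VCR replicates 1 and 3, and at 1.14 and 0.400 in PTPN21+VCR replicates 1 and 3. The groups overlapped at 0, and the value of 3.65 FPKM in a single library set the NC+VCR mean of 1.30 FPKM.

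**Figure D2:**
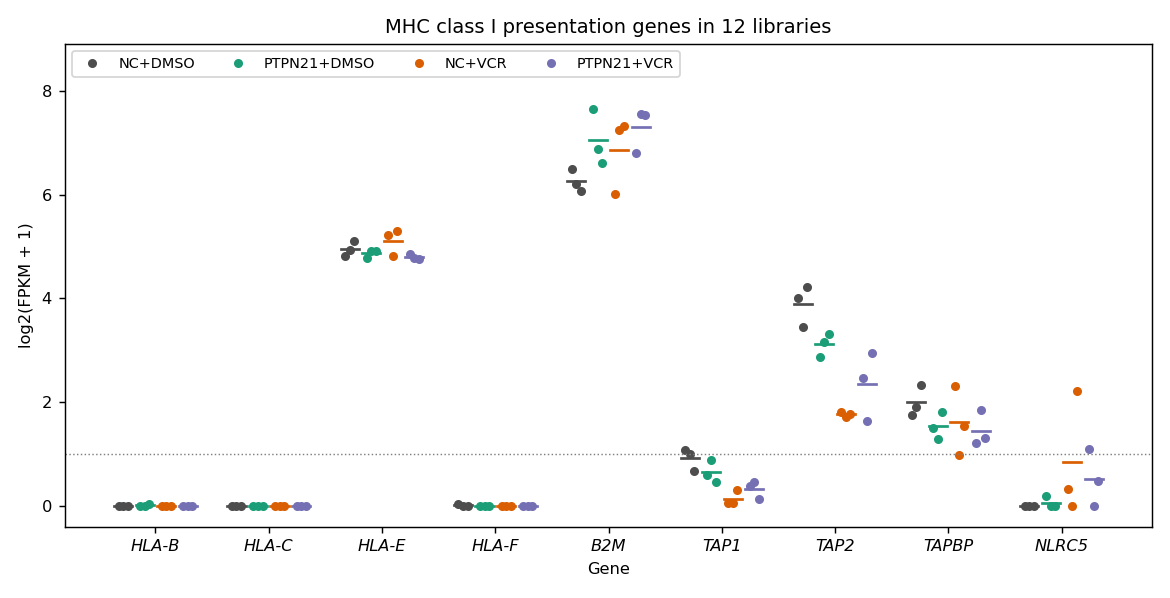
Level of the 9 genes as log2(FPKM + 1) on the vertical axis, with 1 point for each of the 3 libraries of a group, a short line at the group mean and a dotted line at 1 FPKM. HLA-B, HLA-C and HLA-F lie at 0, HLA-E stays between 25.9 and 38.4 FPKM, and the NC+VCR points of TAP2 lie below all DMSO points.

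By FPKM level as deposited, B2M came first and HLA-E second in every library, since the lowest B2M value (63.5 FPKM) exceeded the highest HLA-E value (38.4 FPKM). TAP2 followed, and its lowest NC+DMSO value (9.90 FPKM) stood above the highest TAPBP value (4.02 FPKM), whereas in NC+VCR and PTPN21+VCR the ranges of TAP2 and TAPBP overlapped. TAPBP lay above TAP1 within every group. HLA-B, HLA-C and HLA-F could not be ordered.

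Comparisons were made on log2(FPKM + 1) in one limma fit over the 11591 genes with a mean of at least 1 FPKM, which 4 of the 9 members reached (HLA-E, B2M, TAP2 and TAPBP) and 5 did not. The Benjamini-Hochberg adjustment ran over the whole set of 11591, and a gene passed at an adjusted p under 0.05. Shares of genes whose groups did not overlap are over the same 11591. Member counts of that kind are over all 9, of which 5 lie outside that set. With 3 libraries a side, an exact permutation test (two-sided) gives p = 0.1 at the least. The median of all genes tested was itself shifted, by -0.36 for VCR in NC cells, -0.17 for VCR in PTPN21 cells, -0.14 for PTPN21 in DMSO, 0.03 for PTPN21 in VCR and 0.17 for the interaction, and member values are read beside it. Median ratio scaling, which sets libraries to a common typical gene, moved the first 3 of these medians to -0.04, -0.01 and 0.01.

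TAP2 fell under VCR in NC cells, and it alone of the 4 tested members passed the threshold in that comparison, where 36.2% of all genes tested passed. Its log2 fold change was -2.12 (SE 0.305, limma, Benjamini-Hochberg adjusted p = 0.000347, lower in 3 of 3 libraries), against a median of -0.36 over all genes, and it stood at the 0.845 percentile of all genes tested. The value ranged from -2.48 to -1.73 over the 9 alternative settings and passed in each, and it passed with any 1 library left out. B2M differed by 0.60 (95% interval -0.16 to 1.37, adjusted p = 0.198), HLA-E by 0.16 (-0.16 to 0.48, adjusted p = 0.412) and TAPBP by -0.38 (-1.10 to 0.33, adjusted p = 0.377), and none of the 3 passed in limma. HLA-E passed at 0.54 (limma, adjusted p = 0.0104) under median ratio scaling, and B2M passed at 1.03 (adjusted p = 0.0231) without NC+VCR replicate 1. The sign of TAPBP turned to 0.045 under quantile normalization. Of the 9 members, 2 (TAP1 and TAP2) had groups that did not overlap, both lower in VCR. Of the 4 tested members TAP2 alone did, where 44.1% of all genes tested did not overlap. TAP1 differed by -0.78 (SE 0.161, limma, adjusted p = 0.0118) in the fit with no minimum level. The epithelial marker sum moved with the same comparison (605 to 801 against 1695 to 1797 FPKM), as did the erythroid genes GATA1 (57.4 to 76.9 against 13.5 to 25.3 FPKM) and HBG2 (780 to 1308 against 560 to 637 FPKM), and their part in the TAP2 value was not tested. In bulk RNA, fewer cells of one kind and less RNA per cell cannot be told apart.

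Under VCR in PTPN21 cells, none of the 4 tested members passed, where 28.5% of all genes tested did. TAP2 differed by -0.76 (95% interval -1.43 to -0.10, limma, unadjusted p = 0.0272, adjusted p = 0.0802), and was the one member under an unadjusted 0.05. Without PTPN21+VCR replicate 3 it passed at -1.06 (limma, adjusted p = 0.0263). B2M differed by 0.25 (-0.52 to 1.02, limma adjusted p = 0.635), and by 0.03 without PTPN21+DMSO replicate 3 and 0.56 without PTPN21+DMSO replicate 1. HLA-E differed by -0.08 (-0.40 to 0.24, limma adjusted p = 0.739) and TAPBP by -0.08 (-0.80 to 0.63, adjusted p = 0.881), and both signs turned under median ratio scaling and quantile normalization. TAP1, which was not among the tested members, alone of the 9 had groups that did not overlap. The groups overlapped for the 4 tested members, where 50.4% of all genes tested did not overlap. In the fit with no minimum level TAP1 differed by -0.33 (limma, adjusted p = 0.289).

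PTPN21 overexpression in DMSO changed none of the 4 tested members at the threshold, where 6.34% of all genes tested passed. B2M differed by 0.79 (95% interval 0.03 to 1.56, limma, unadjusted p = 0.0434, adjusted p = 0.180) and TAP2 by -0.77 (-1.43 to -0.11, unadjusted p = 0.0262, adjusted p = 0.139), both of which had an unadjusted p under 0.05. They were also the 2 members of 9 whose groups did not overlap, one higher and one lower in each of the 3 PTPN21 libraries (exact permutation p = 0.1 for each, the smallest possible), where 33.4% of all genes tested did not overlap. HLA-E differed by -0.08 (-0.40 to 0.24, limma adjusted p = 0.777), with a positive sign under median ratio scaling and quantile normalization, and TAPBP by -0.46 (-1.17 to 0.25, adjusted p = 0.408). Estimated depth moved with the construct too (14360000 to 16240000 fragments in NC+DMSO, 22340000 to 23780000 in PTPN21+DMSO), as did GATA1 (57.4 to 76.9 against 85.0 to 106 FPKM) and HBG2 (780 to 1308 against 1966 to 2985 FPKM), and their part in these values was not tested.

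PTPN21 overexpression in VCR also gave no member past the threshold, where 1.82% of all genes tested passed, and none under an unadjusted 0.05. HLA-E differed by -0.32 (95% interval -0.64 to 0.003, limma, unadjusted p = 0.0519, adjusted p = 0.298), B2M by 0.44 (-0.33 to 1.21, adjusted p = 0.574), TAP2 by 0.59 (-0.07 to 1.25, adjusted p = 0.356) and TAPBP by -0.16 (-0.87 to 0.56, adjusted p = 0.861). The groups overlapped for all 9 members, where 22.5% of all genes tested did not overlap. TAPBP changed sign, to 0.19, without NC+VCR replicate 1. B2M was 0.02 without that library and 0.69 without PTPN21+VCR replicate 1.

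The interaction asked whether VCR acted differently in PTPN21 and NC cells. None of the 4 tested members passed, where 0.129% of all genes tested did. TAP2 had the widest difference, 1.36 (95% interval 0.42 to 2.30, limma, unadjusted p = 0.00816, adjusted p = 0.217), at the 98.2 percentile of all genes tested, so the response of TAP2 is not shown to differ between the constructs. B2M had an interaction of -0.35 (-1.44 to 0.73), HLA-E of -0.24 (-0.69 to 0.22) and TAPBP of 0.30 (-0.71 to 1.31), with limma adjusted p of 0.770, 0.619 and 0.792.

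**Figure D3:**
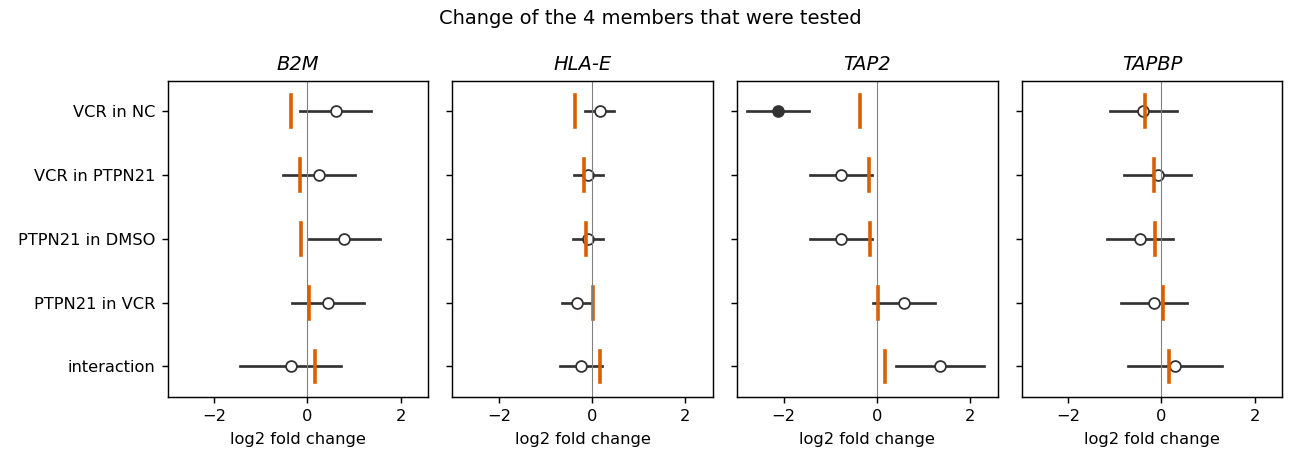
Log2 fold change on the log2(FPKM + 1) scale (horizontal axis) of the 4 tested members in the 5 comparisons, with 95% intervals. Filled points passed an adjusted p of 0.05, open points did not, and the orange bars mark the median of all genes tested. The filled point is TAP2 for VCR in NC cells, at -2.12.

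The wider class I pathway was read from 6 lists and a class II list, and counts are given beside the share of all genes tested that passed in the same comparison (7.91% higher and 28.3% lower for VCR in NC cells, 9.22% and 19.3% for VCR in PTPN21 cells). Many of these calls depended on the scaling, and so did the shares of all genes tested. Under median ratio scaling 14.8% were higher and 11.7% lower for VCR in NC cells, and 13.7% and 12.5% in PTPN21 cells. With quantile normalization the shares were 13.3% and 12% in NC cells, and 14.2% and 13.3% in PTPN21 cells. Of 25 list genes that passed for VCR in NC cells, 24 still passed under TPM, 14 under the median ratio and 15 with quantile normalization, and of 20 in PTPN21 cells, 20, 14 and 17 did, with no sign turned. Of 10 peptide loading genes 8 were tested, and 0 rose and 4 fell in NC cells (CALR, CANX, ERAP1 and SEC61A1) while 0 rose and 3 fell in PTPN21 cells (CALR, ERP29 and HSPA5), with list medians of -0.69 and -0.40. Under median ratio scaling 2 peptide loading genes were higher and 2 lower in NC cells, and 0 and 2 in PTPN21 cells. CALR, which encodes the chaperone calreticulin, was at 855 to 1083 FPKM in NC+DMSO and 400 to 492 in NC+VCR, beside 1166 to 1257 in PTPN21+DMSO and 352 to 379 in PTPN21+VCR. It fell by 1.11 in NC cells (limma, adjusted p = 2.62e-05) and by 1.73 in PTPN21 cells (adjusted p = 1.27e-06), and every VCR value lay below every DMSO value. CANX, which encodes calnexin, fell by 1.04 in NC cells (limma, adjusted p = 0.000772) and, in PTPN21+DMSO against NC+DMSO, by 0.75 (adjusted p = 0.0300). SEC61A1, a translocon subunit gene, fell by 1.20 (limma, adjusted p = 0.00933) and ERAP1, which encodes a peptide-trimming aminopeptidase, fell by 1.27 (adjusted p = 0.0169) in NC cells, with -0.70 and -0.14 in PTPN21 cells (adjusted p = 0.105 and 0.811). The calls of SEC61A1 and ERAP1 were lost under median ratio scaling and quantile normalization, that of CANX in DMSO under median ratio scaling, and those of CALR under neither.

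The immunoproteasome subunits cut peptides for class I molecules. Of 5 genes 4 were tested, and 2 fell in NC cells (PSMB9 and PSMB10), while in PTPN21 cells the same 2 fell and PSME2, an activator subunit gene, rose. Under the median ratio 1 was higher and 1 lower in NC cells and 2 and 2 in PTPN21 cells, and with quantile normalization 0 and 1, and 2 and 2. PSMB9 was at 3.77, 2.44 and 3.99 FPKM in NC+DMSO, at 4.78, 2.88 and 4.11 in PTPN21+DMSO, at 1.01, 0 and 0.372 in NC+VCR and at 1.21, 0.816 and 1.91 in PTPN21+VCR. All VCR libraries lay below all DMSO libraries. PSMB9 reached the minimum level through its DMSO libraries, so its values are a description and its calls are no support for the count. PSMB10 fell by 1.17 and by 1.35 (limma, adjusted p = 0.0155 and 0.00912), the first of which did not pass under median ratio scaling or quantile normalization. PSMB8, another catalytic subunit gene, was listed at 0 in 11 libraries.

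All 18 genes of the class I transcription regulator list were tested, and 1 rose (CREB1) and 8 fell in NC cells, against 0 and 2 in PTPN21 cells, with list medians of -0.65 and -0.08. Under median ratio scaling 3 rose and 3 fell in NC cells, beside 14.8% and 11.7% of all genes tested. The list median was then -0.34, beside -0.04 for all genes tested. RFX5 and RFXANK encode subunits of the factor that binds the X box of class I and class II promoters. RFXANK fell by 1.04 in NC cells (limma, adjusted p = 0.00521) and by 0.77 in PTPN21 cells (adjusted p = 0.0283). RFX5 fell by 1.14 in NC cells (adjusted p = 0.00455), with -0.35 in PTPN21 cells (limma, adjusted p = 0.325). NFYC, a subunit gene of the factor that binds CCAAT, fell by 0.71 and by 0.73 (limma, adjusted p = 0.00867 and 0.00909). CREBBP, a coactivator gene, fell by 1.37 in NC cells (limma, adjusted p = 0.0116) and by 1.47 in PTPN21+DMSO against NC+DMSO (adjusted p = 0.0371). Under median ratio scaling RFXANK did not pass with either construct, NFYC not in NC cells and CREBBP not in DMSO, and under quantile normalization RFXANK did not pass in PTPN21 cells and NFYC and CREBBP not in NC cells.

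All 12 interferon signalling genes were tested, and 2 rose and 3 fell in NC cells, with 2 and 2 in PTPN21 cells. The kinase gene JAK1 rose by 0.88 and 1.08 (limma, adjusted p = 0.0155 and 0.00639). The receptor gene IFNAR2 fell by 1.21 in NC cells and IFNAR1 by 1.10 in PTPN21 cells (limma, adjusted p = 0.0115 and 0.00213), and IFNAR2 did not pass under median ratio scaling or quantile normalization. With the other construct IFNAR2 differed by -0.53 and IFNAR1 by -0.49 (limma, adjusted p = 0.234 and 0.0807), and neither interaction passed (adjusted p = 0.500 and 0.368). Of 31 interferon-stimulated genes, 30 were in the table, 18 of them stayed under 1 FPKM in every library and 11 were tested. In NC cells 2 rose and 2 fell, and in PTPN21 cells 2 rose and 4 fell. GBP2, a guanylate-binding protein gene, was at 0.0165 to 0.117 FPKM in DMSO and 2.23 to 3.32 FPKM in VCR, and reached the minimum level only through the VCR libraries, so its 2 calls are a description and no support for the count. IFI27 rose by 1.64 and 1.61 (limma, adjusted p = 0.00809 and 0.0106). ISG15, a ubiquitin-like modifier gene, fell by 1.20 and by 1.07 (limma, adjusted p = 0.00178 and 0.00409), and IFI35 fell by 0.78 in PTPN21 cells (adjusted p = 0.0344), a call lost under the same 2 scalings. Of the interferon-stimulated genes, 4 were higher and 1 lower in NC cells under the median ratio and 5 and 3 with quantile normalization, and in PTPN21 cells 3 and 1, and 4 and 3.

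Among 18 class I-like genes 6 were tested, and 2 rose with either construct. ULBP2, a ligand of the NK cell receptor NKG2D, was at 16.1, 20.3 and 17.0 FPKM in NC+DMSO, at 15.3, 16.9 and 14.8 in PTPN21+DMSO, at 62.7, 70.7 and 62.6 in NC+VCR and at 70.2, 80.0 and 68.8 in PTPN21+VCR. It rose by 1.82 in NC cells and by 2.15 in PTPN21 cells (limma, adjusted p = 2.56e-06 and 1.17e-06), with no overlap between VCR and DMSO. PROCR, the protein C receptor gene, rose by 0.78 and 0.94 (limma, adjusted p = 0.00152 and 0.000539). Of 12 class II presentation genes, 10 stayed under 1 FPKM in every library, 6 were at 0 in all 12 and 1 (HLA-DMA) was tested, with no call. For PTPN21 in DMSO, where 2.65% of all genes were higher and 3.69% lower, 1 peptide loading gene rose (ERP29) and 2 fell (CANX and UGGT1), 3 regulators fell (NFYA, CREBBP and EZH2), and the other lists had no call. Of these 6 genes, 6 still passed under TPM, 1 under median ratio scaling and 5 with quantile normalization. Under the median ratio 2 peptide loading genes were higher (ERP29 and HSPA5) and 0 lower, where 3.64% of all genes tested were higher and 1.3% lower. For PTPN21 in VCR and for the interaction, 0 genes of any of the 7 lists passed.

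**Figure D4:**
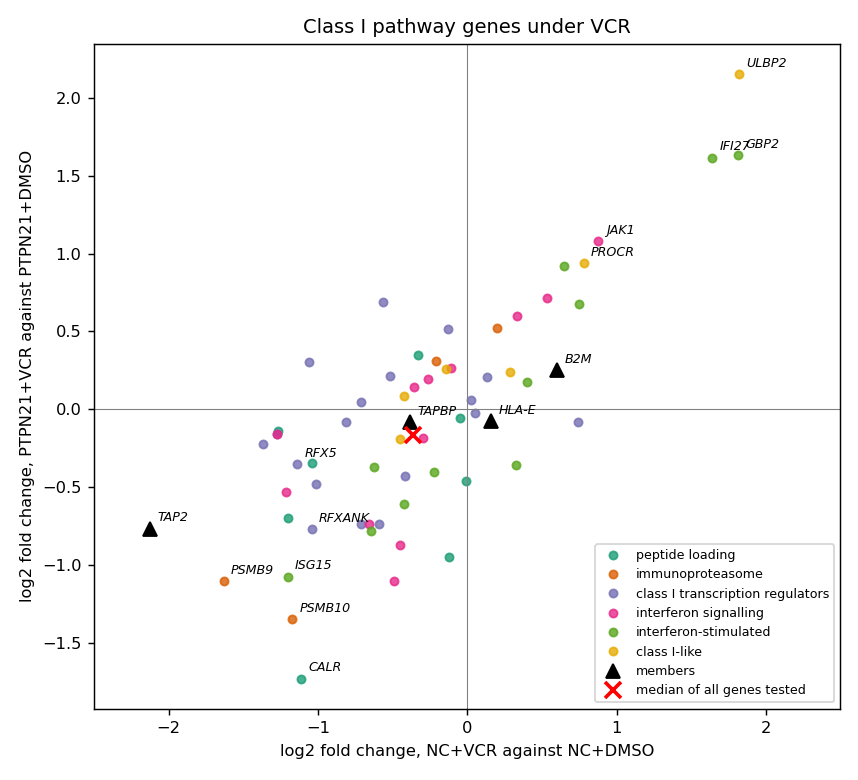
Log2 fold change under VCR in NC cells (horizontal axis) against that in PTPN21 cells (vertical axis), on the log2(FPKM + 1) scale, for the tested genes of 6 pathway lists (coloured by list), the 4 tested members (black triangles) and the median of all genes tested (red cross). The comparisons share no library, ULBP2 lies at 1.82 and 2.15, and TAP2 lies farther from 0 in NC cells (-2.12) than in PTPN21 cells (-0.76).

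Of the 9 members, 7 lie in the MHC region of chromosome 6. From the start of HLA-F to the end of TAPBP (chr6:29722775-33314387) there are 149 protein-coding genes in GENCODE release 29 that are in the table. Of these, 81 (54.4%) had a mean of at least 1 FPKM, beside 48.1% of all 19903 protein-coding genes, and 32 were at 0 in all 12 libraries. In NC cells under VCR 24 of these 81 fell (29.6%, beside 28.3% of all genes tested) and 5 rose (6.17%, beside 7.91%), shares near those of all genes. In PTPN21 cells 28 fell (34.6%, beside 19.3%) and 6 rose (7.41%, beside 9.22%). Under median ratio scaling 10 were lower (12.3%, beside 11.7%) and 10 higher (12.3%, beside 14.8%) in NC cells. In PTPN21 cells 19 were lower (23.5%, beside 12.5%) and 6 higher (7.41%, beside 13.7%) under that scaling. With PTPN21, 2 rose in DMSO (2.47%, beside 2.65%) and 3 fell in VCR (3.70%, beside 0.820%), and 2 were lower in VCR under the median ratio (2.47%, beside 0.682%).

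The genes most like 2 of the members across the 12 libraries are given as a description, since the libraries share the 4 groups. For B2M they were UBL5 (Pearson r = 0.85), USE1 (0.84) and TCEA3 (0.83). For TAP1 they were TRMT10C (0.94), PGK1 (0.94) and OGFOD3 (0.93). HLA-B was above 0 in 1 library and NLRC5 in 5, so their likeness to AC005614.2 (0.93), DDX24 (0.80) and RNFT2 (0.79), and to C1orf100 (0.90), AL162151.2 (0.88) and DMKN (0.80), rests on those libraries.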

How the data were processed

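RNA of 12 libraries labelled Jurkat was sequenced and processed by an external company. What the authors deposited is a single FPKM table, 60671 genes by 12 libraries, each column of which was matched to a sample by its title. The submitters' processing notes list fastp, Bowtie2 and the mouse build mm10, with no role or version, while the identifiers are human Ensembl genes. The counting program, the annotation and the treatment of reads shared between genes are not given in the sources used here, and the design text speaks of tag profiling, in which FPKM per length would not apply in the same way. GENCODE release 29 (GRCh38) matched 58453 identifiers (96.3%) and gave positions and lengths.

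Values were taken to log2(FPKM + 1), and the 11591 genes with a mean of at least 1 FPKM entered limma 3.58.1 (R 4.3.3), with an intensity trend, one model of 4 group means without a block, and Benjamini-Hochberg adjustment at 0.05. Fold changes on this scale understate the change of low genes. Depth was estimated from the steps of FPKM times length over 4383 single-exon genes, as the best fit over a grid of depths. At that depth 24.3 to 39.4% of values came within 0.05 of a whole number. The share by chance is 10% at a single fixed depth and higher for the best of a grid. A step of 1 fragment and one of 2 could not be separated, and the depths are approximate.

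The genes named were all 9 members, PTPN21, from each pathway list up to 4 tested genes with the largest change averaged over both VCR comparisons among those past the threshold in any comparison, and the 3 genes most like HLA-B, B2M, TAP1 and NLRC5. Other genes named beside a count of calls were named after their values were seen. The members and lists were chosen with earlier results of these data known. Alternatives were a pseudocount of 0.1, no minimum level, a minimum of 5 FPKM, TPM, median ratio and quantile scaling, limma without the trend (for counts over all genes chosen after seeing the data), only the groups compared, a replicate block, and each library left out. Calls in the pathway lists and the MHC region were recomputed under the 3 scalings, an alternative chosen after seeing the data. One gene of the pathway lists is counted but not reported here by name. Libraries were not treated as paired by replicate number in the reported fit.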

Additional observations from a re-analysis of the deposited data

Results flagged for a closer look

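CALR differed in opposite directions between the constructs in DMSO and in VCR. It was 0.31 higher in PTPN21+DMSO than in NC+DMSO and 0.31 lower in PTPN21+VCR than in NC+VCR on the log2(FPKM + 1) scale, with every library of one group above every library of the other in both cases. Neither comparison passed (limma, adjusted p = 0.104 and 0.167), and the interaction was -0.61 (SE 0.153, adjusted p = 0.140), so the difference was tested and did not pass.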

How the results depend on the processing

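The fall of TAP2 under VCR in NC cells kept its direction and passed under all 9 settings and with each of the 12 libraries left out. Of the member values, 163 kept their direction and side of the threshold across settings, 7 reversed and 1 passed newly, and with 1 library left out 234 did, 4 reversed and 2 passed newly. The reversed values, none of which passed, were small. Under median ratio scaling, HLA-E was 0.11 for VCR in PTPN21 cells and 0.10 for PTPN21 in DMSO, and TAPBP was 0.040 for VCR in PTPN21 cells. Under quantile normalization, HLA-E was 0.076 and 0.0048 in the same comparisons, and TAPBP was 0.045 for VCR in NC cells and 0.092 in PTPN21 cells. With a library left out, TAPBP ranged from -0.28 to 0.056 for VCR in PTPN21 cells, positive without PTPN21+DMSO replicate 3 or PTPN21+VCR replicate 1, from -0.47 to 0.19 for PTPN21 in VCR, positive without NC+VCR replicate 1, and from -0.015 to 0.65 for the interaction, negative without NC+VCR replicate 2. For VCR in NC cells, 1 member passed in the reported fit and 2 passed with no minimum level (TAP1 added) or under median ratio scaling (HLA-E added), and 1 to 2 with a library left out. For VCR in PTPN21 cells 0 passed, and 0 to 1 with a library left out. TAPBP was not tested at a minimum of 5 FPKM. The interaction uses all 4 groups, so no fit of only the groups compared was made for it.

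Counts over all genes moved more. For VCR in NC cells 4192 genes passed, 2674 with only the groups compared and 3224 to 4024 with a library left out, and the split of 917 higher and 3275 lower became 1717 and 1361 under median ratio scaling and 1540 and 1393 under quantile normalization. For VCR in PTPN21 cells 3308 passed, and 2353 to 3619 with a library left out. For PTPN21 in DMSO 735 passed, 177 with no minimum level, 321 without the trend, 40 with only the groups compared, and 67 to 1345 with a library left out (lowest when PTPN21+DMSO replicate 1 was dropped, highest for NC+DMSO replicate 2). For PTPN21 in VCR 211 passed, 118 with no minimum level, 344 at a minimum of 5 FPKM, 72 without the trend, 117 with only the groups compared, and 43 to 354 with a library left out (lowest when PTPN21+VCR replicate 2 was dropped, highest for NC+DMSO replicate 3). For the interaction 15 passed, 8 with no minimum level, 8 at a minimum of 5 FPKM, 28 under TPM scaling, 9 without the trend and 7 to 30 with a library left out (lowest when NC+DMSO replicate 1 was dropped, highest for NC+DMSO replicate 2). The cause was not tested.

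No shared deviation of same-numbered libraries was detected (18 pairs, r from -0.15 to 0.06, none over 0.1). With 3 libraries a group this cannot show whether they shared a culture or a day. With the replicate block, 242 genes passed for PTPN21 in DMSO, 74 for PTPN21 in VCR and 8 for the interaction, and the number of members that passed was the same as without the block in each comparison.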
